A study of Mus musculus with 4 samples.

Results

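Lung pericytes in 4 single-cell RNA libraries of hypoxic mouse lung were chosen by their own transcripts. A cell was taken where at least 3 of the 6 marker genes Cox4i2, Higd1b, Trpc6, Postn, Pdgfrb and Notch3 were detected, at least 1 of them Cox4i2 or Higd1b. Fewer than 2 of the muscle genes Myh11, Cnn1, Actg2 and Des could be detected, the endothelial genes Cdh5 and Cldn5 could hold at most 1 unique molecular identifier (UMI, a counted transcript) together, and Ptprc and Epcam none. Of 44835 cells kept, 361 met these conditions, 111 and 72 in Vegfr2Y949F libraries A and B, against 102 and 76 in libraries A and B of WT mice. The levels of these 14 genes therefore chose the cells, and they are described here without a test.

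The Vegfr2Y949F mice, called mutant here, carry an altered allele of VEGFR2, a tyrosine kinase receptor of endothelium that responds to VEGF-A and is encoded by Kdr, and the allele's name denotes phenylalanine in place of a tyrosine. WT mice of the same C57BL/6J background were set against them, and the study asked how single lung cells differ between the genotypes. All mice were 6 to 8 weeks old and had been kept in hypoxia for 6 weeks, and no library of normoxic lung was analysed here. Each library pooled the lungs of 2 mice, so that p-values measure the spread between 2 pools per genotype. The labels state neither the sex of the mice nor what the set letters A and B mark. The counts report the amount of Kdr RNA and not its sequence, so they cannot check the genotype labels.

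Pericytes sit inside the basement membrane of capillaries and touch the endothelial cells directly. They are recruited by endothelial PDGF-B acting on the receptor that Pdgfrb encodes, and Notch3 is a receptor through which mural cells read endothelial Notch ligands. In the lung, Cox4i2 and Higd1b mark them, and Cox4i2 encodes the subunit of cytochrome c oxidase by which pulmonary vessels sense low oxygen. Trpc6 is a cation channel needed for acute hypoxic vasoconstriction, and Postn encodes the matrix protein periostin. Pericytes differ from vascular smooth muscle cells in having little of the contractile apparatus.

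Promoter windows, the 250 bases before a transcription start, were looked up for the 6 marker genes and for the 12 genes that set pericytes most apart from muscle cells and fibroblasts, and 13 of these 18 genes had an entry. The sequences come from RefSeq on GRCm38.p6, and 4 are shown because 3 belong to markers that define the cells and the last to Spp1, the highest of the other 12 genes. Capitals mark matches, on either strand, to the hypoxia response core ACGTG, its variant GCGTG, the TATA element TATAAA or TGGGAA, the core bound by the Notch effector RBPJ.
Trpc6, chr9:8543892-8544141, plus strand: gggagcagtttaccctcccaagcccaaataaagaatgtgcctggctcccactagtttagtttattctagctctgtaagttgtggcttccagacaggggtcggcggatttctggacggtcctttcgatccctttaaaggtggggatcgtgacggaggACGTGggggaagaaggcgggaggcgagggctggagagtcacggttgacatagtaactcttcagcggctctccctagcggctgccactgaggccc
Notch3, chr17:32166891-32167140, minus strand: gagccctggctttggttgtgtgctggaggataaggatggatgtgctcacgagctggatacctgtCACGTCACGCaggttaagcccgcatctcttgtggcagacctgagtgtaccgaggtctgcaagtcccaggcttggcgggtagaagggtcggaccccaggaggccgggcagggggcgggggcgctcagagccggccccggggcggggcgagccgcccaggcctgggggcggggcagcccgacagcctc
Postn, chr3:54360857-54361106, plus strand: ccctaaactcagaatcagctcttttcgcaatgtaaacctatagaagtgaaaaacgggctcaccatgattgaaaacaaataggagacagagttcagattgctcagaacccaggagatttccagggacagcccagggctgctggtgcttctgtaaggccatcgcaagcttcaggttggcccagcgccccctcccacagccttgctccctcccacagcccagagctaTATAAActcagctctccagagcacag
Spp1, chr5:104434861-104435110, plus strand: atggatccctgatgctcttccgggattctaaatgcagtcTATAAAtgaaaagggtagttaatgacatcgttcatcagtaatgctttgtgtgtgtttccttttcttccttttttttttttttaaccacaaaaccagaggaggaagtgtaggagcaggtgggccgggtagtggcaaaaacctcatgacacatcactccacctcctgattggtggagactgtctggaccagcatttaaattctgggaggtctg
Trpc6 held 1 ACGTG, 94 bases before the start. Notch3 held an ACGTG and an adjoining GCGTG on the opposite strand, 186 and 181 bases before the start, which follow each other without overlap in the capitals shown. Postn held TATAAA 26 bases and Spp1 211 bases before the start shown, and the second window that the table has for each of these genes, at another start, held none of the motifs. Of 32851 windows of this length, 16.6% held ACGTG, 28.2% GCGTG, 21.6% TGGGAA and 12.4% TATAAA. A match describes the letters only.

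Cox4i2 stood at 2476 and 3742 CPM (depth-scaled counts from the summed UMIs of all pericytes of a library) in the mutants (library A, then B, here and below), and at 3804 and 4005 CPM in WT pericytes. Higd1b, a small mitochondrial membrane protein, had 1806 and 1700 CPM in mutants and 2378 and 2096 CPM in WT pericytes. For both genes the mutant libraries lay below the WT libraries, as they did for 13.8% of the 5745 genes tested outside the rule. Postn had 4055 and 2976 CPM in mutant and 3362 and 2418 CPM in WT pericytes, and Trpc6 603 and 444 CPM in mutant and 477 and 436 CPM in WT pericytes. Pdgfrb had 1696 and 1065 CPM in mutant and 1276 and 954 CPM in WT pericytes, and Notch3 1111 and 760 CPM in mutant and 1062 and 806 CPM in WT pericytes. Within each genotype, library A was the higher for Postn, Trpc6, Pdgfrb and Notch3. The 4 markers other than Cox4i2 and Higd1b overlapped between genotypes. All 6 markers were detected in 238 cells, 5 in 71, 4 in 25 and 3 in 27.

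The muscle condition separated cells of much the same Cox4i2 and Higd1b level, genes that the rule itself uses. Of the 931 cells that met the other conditions, 79 had none of the 4 muscle genes, 282 had 1, 491 had 2, 50 had 3 and 29 had all 4. The pericytes just inside, with 1 muscle gene, had 3797 CPM of Cox4i2 and 2170 CPM of Higd1b, against 4041 and 2261 CPM in the 489 cells just outside with Myh11 and Des and neither Cnn1 nor Actg2. Median depth was 3796 UMIs per cell inside and 5198 UMIs outside. Cox4i2 was at 842 CPM in cells with 3 muscle genes and at 268 CPM in those with 4, where Acta2, smooth muscle actin, was at 14336 CPM. Genes outside the rule were partly alike in the pericytes with 1 muscle gene and the 489 cells. Gucy1a1 was at 3390 CPM inside and 3428 CPM outside, and Pdzd2 at 4131 and 4038 CPM. Acta2 differed, at 184 CPM inside and 481 CPM outside, as did Tagln (530 and 913 CPM) and the alveolar fibroblast marker Inmt (892 and 255 CPM). On the marker side, Cox4i2 was at 363 CPM in pericytes with 3 markers and at 4251 CPM in those with 6, and at 113 CPM in the 57 cells just outside with 2. Gucy1a1, outside the rule, was at 149 CPM with 3 markers, 899 CPM with 4 and 4005 CPM with 6. Inmt was at 3900 CPM with 3 markers, 4384 CPM with 4 and 379 CPM with 6, and at 5004 CPM in the cells with 2. The name pericyte is therefore least sure for the cells with 3 or 4 markers. Because many marker-bearing cells lay just outside the muscle condition, comparisons were repeated over a wider class, chosen after the data were seen. It held all 850 marker-bearing cells with neither Cnn1 nor Actg2, whatever their Des and Myh11.

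**Figure D1:**
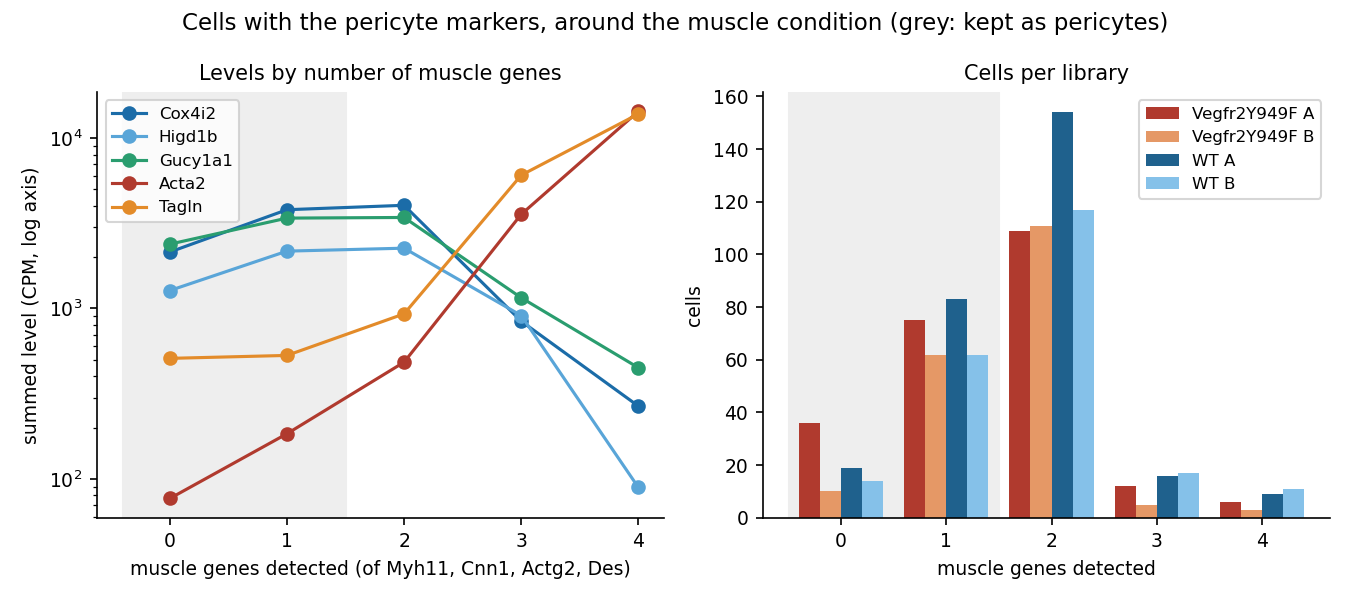
Cells with the pericyte markers and within the endothelial, Ptprc and Epcam limits, by the number of muscle genes detected (x axis). Left, summed levels of 5 genes in CPM on a log axis; right, the number of cells per library. The grey area holds the cells kept as pericytes, and Cox4i2 is at 3797 CPM in the 282 cells with 1 muscle gene and at 4030 CPM in the 491 with 2, whereas Acta2 reaches 14336 CPM in the cells with 4.

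Pericyte sums held 401474 and 344741 UMIs in the mutant libraries and 373015 and 351065 UMIs in the WT libraries. Median depth per pericyte was 2962 and 4324 UMIs in mutant and 3098.5 and 4194.5 UMIs in WT libraries, so the B libraries were deeper in both genotypes. Of the 361 pericytes, 61 also carried 3 or more markers of another cell type and are called mixed here, 25 and 11 in mutant and 11 and 14 in WT libraries. Alveolar fibroblast markers were the most frequent of these, in 47 cells, 19 and 10 in mutant and 10 and 8 in WT libraries. The 6 alveolar fibroblast markers summed to 2894 and 2495 CPM in mutant and 1981 and 1595 CPM in WT pericytes, and to 639 and 643 CPM in mutant and 487 and 444 CPM in WT pericytes without mixed cells, against 10608 CPM in alveolar fibroblasts. Macrophage markers reached 672 CPM in WT B and 24.1 to 72.2 CPM elsewhere, alveolar type 1 markers 590 CPM in mutant A and 80.4 to 148 CPM elsewhere, and adventitial fibroblast markers 974 CPM in WT B and 137 to 274 CPM elsewhere. None of the 6 alveolar fibroblast markers was at 0 in every library. Free RNA was present, as Scgb1a1, a club cell secretory protein gene, had a UMI in 91.1% of pericytes and in 90.6% of alveolar fibroblasts, both of which should lack it, at median depths of 3438 and 8114 UMIs. Pairs of libraries shared 43 to 70 cell barcodes, and 3 of the 361 pericytes carried a barcode found in another library. Results that mixed cells touch are given with and without them.

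**Figure D2:**
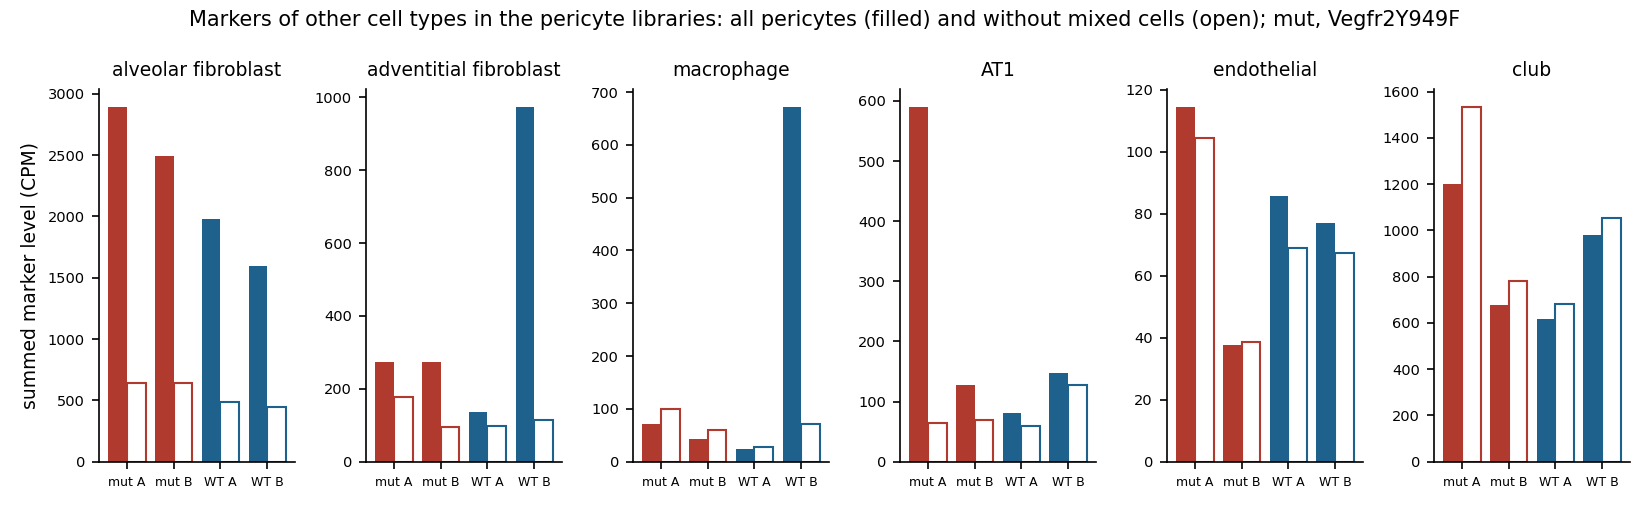
Summed markers of 6 other cell types (CPM, y axes differ) in the pericytes of each library, mutant libraries in red and WT libraries in blue. Filled bars are all pericytes and open bars pericytes without the 61 mixed cells, whose removal lowers the macrophage sum of WT B and the alveolar type 1 sum of mutant A to the range of the other libraries.

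The pericyte share of cells did not separate the genotypes. It was 0.892% and 0.712% of kept cells in mutant and 0.870% and 0.720% in WT libraries. The 95% Wilson intervals, which cover counting error only, were 0.741 to 1.07% and 0.566 to 0.896% in the mutants and 0.717 to 1.06% and 0.575 to 0.900% in WT. The means were 0.802 ± 0.127% in mutant and 0.795 ± 0.106% in WT libraries (SD, n = 2 each), and the groups overlapped (exact permutation test over libraries, two-sided, p = 1, where the smallest possible p is 0.333). Over the wider class the shares were 1.76% and 1.81% in mutant and 2.18% and 1.83% in WT libraries, with no overlap (exact permutation p = 0.333). The sign of the difference turned under several settings. A share also follows tissue digestion and depth.

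Against alveolar fibroblasts, pericytes had 1839 genes higher (16.5% of 11112 tested) and 2412 lower (21.7%) by edgeR's quasi-likelihood test on library sums, with the library as a block and calls at a Benjamini-Hochberg adjusted p under 0.05. Against smooth muscle cells as first defined, with at least 2 of the 4 muscle genes, 251 genes were higher (3.39% of 7414) and 401 lower (5.41%), but those 757 cells were largely the marker-bearing cells just outside the threshold. The muscle values below therefore set the wider class of 850 pericytes against the 213 muscle cells with Cnn1 or Actg2, a comparison chosen after the data were seen, in which 1262 genes were higher (16% of 7893) and 1524 lower (19.3%). These fits scale libraries by TMM, which sets the bulk of genes equal, whereas CPM scale by the total. With library-size scaling, added after the data were seen, the median of all genes moved up by 0.26 against fibroblasts and 0.17 against muscle cells, and 3026 genes were higher and 1717 lower than in fibroblasts and 1853 higher and 1182 lower than in muscle cells. Directions below are therefore relative to the bulk of genes. List counts below are to be read beside the TMM shares of all genes. These were 16.5% higher and 21.7% lower against fibroblasts, and 16% and 19.3% against muscle cells with Cnn1 or Actg2. Because cells were sorted by marker genes, genes that vary with those markers differ partly by construction. The tests therefore describe how steady a difference was over the 4 libraries and support no cell type name. Fold changes below are log2, pericytes over the other type, ± SE, and levels are the mean ± SD over 4 libraries of the 361 pericytes and the mean over 4 libraries of other types.

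Ndufa4l2 and its paralog Ndufa4 differed in opposite directions. Ndufa4l2, the hypoxia-inducible paralog of the complex IV subunit Ndufa4, had 1066 and 1677 CPM in mutant and 2123 and 1971 CPM in WT pericytes, against 6.90 CPM in alveolar fibroblasts and 389 CPM in muscle cells. It was higher by 7.67 ± 0.19 than in fibroblasts (edgeR adjusted p = 5.26e-24, higher in 4 of 4 libraries) and by 2.18 ± 0.17 than in muscle cells. Ndufa4 itself had 89.7 and 66.7 CPM in mutant and 61.7 and 85.5 CPM in WT pericytes, against 327 CPM in fibroblasts and 306 CPM in muscle cells. It was lower by the same test in both comparisons (log2 -2.37 ± 0.15 and -2.94 ± 0.18). Cox4i1, the common paralog of the marker Cox4i2, averaged 657 ± 119 CPM in pericytes and 626 CPM in fibroblasts and its fitted log2 difference was -0.21 ± 0.13, not called, and 0.06 with library-size scaling. Without mixed cells it was called lower (log2 -0.34, edgeR adjusted p = 0.0269), so no direction is given. Of 15 genes of complex IV and its isoforms tested against fibroblasts, 1 was higher and 3 were lower, with a median of -0.21 beside -0.04 over all genes. Without mixed cells 1 was higher and 9 were lower (median -0.34), and with library-size scaling 5 were higher and 1 lower (median 0.06 beside 0.23 over all genes).

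Genes of the nitric oxide and cyclic GMP pathway, through which vessel wall cells relax, were mostly higher in pericytes than in fibroblasts. Against muscle cells they were divided. Of 12 tested, 9 were higher and 1 lower than in fibroblasts (median 3.24, against -0.04 over all genes), and 7 were higher and 5 lower than in muscle cells (median 0.51, against 0.03). The soluble guanylate cyclase subunit Gucy1a1, the receptor for nitric oxide, had 3664 and 3121 CPM in mutant and 3188 and 2735 CPM in WT pericytes, against 33.7 CPM in fibroblasts and 461 CPM in muscle cells. Its partner Gucy1b1 had 2409 and 2077 CPM in mutant and 2319 and 2210 CPM in WT pericytes. Gucy1a1 exceeded fibroblasts by 6.29 ± 0.15 and muscle cells by 2.74 ± 0.15, and Gucy1b1 exceeded them by 6.25 ± 0.15 and 2.72 ± 0.15. Pde5a, the phosphodiesterase that degrades cyclic GMP and the target of sildenafil, averaged 2100 ± 403 CPM in pericytes, 73.6 CPM in fibroblasts and 398 CPM in muscle cells (log2 4.56 ± 0.14 and 2.39 ± 0.14). Some other genes of the pathway were lower than in muscle. Mrvi1, a substrate of the cyclic GMP-dependent kinase that restrains calcium release, was at 0 in the pericytes of all 4 libraries and at 111 CPM in muscle cells. Kcnma1, the pore of the large-conductance potassium channel, averaged 0.623 CPM in pericytes and 39.0 CPM in muscle cells, and the phosphodiesterase Pde1a 8.85 and 54.3 CPM in the same cells (log2 -2.78 ± 0.28).

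Receptors for vasoactive signals differed from muscle cells in both directions. Agtr1a, the angiotensin II type 1 receptor, had 299 and 162 CPM in mutant and 271 and 205 CPM in WT pericytes, against 0.0936 CPM in fibroblasts and 10.9 CPM in muscle cells, differences of 10.73 ± 0.26 and 4.56 ± 0.30. A UMI of it was found in 202 of 361 pericytes, and the fullest cell held 1.72% of them. Ednra, the endothelin A receptor, averaged 298 ± 31.0 CPM in pericytes, 127 CPM in fibroblasts and 161 CPM in muscle cells, with log2 differences of 0.97 ± 0.12 and 0.83 ± 0.16. Ednrb, the endothelin B receptor, averaged 1.92 CPM in pericytes, 119 CPM in muscle cells and 132 CPM in endothelial cells, and Ramp1, a subunit of the receptor for the dilator peptide CGRP, 2.01 CPM in pericytes and 192 CPM in muscle cells. Both were lower than in muscle (log2 -6.19 ± 0.40 and -4.98 ± 0.23). Of the 29 receptors listed, 8 had no UMI in any pericyte, among them the purinergic channel P2rx1 and the serotonin receptors Htr1b, Htr2a and Htr2b. Of those tested, 7 of 17 were higher and 5 lower than in fibroblasts, and 5 of 12 were higher and 5 lower than in muscle. Over all genes tested, 16.5% were higher and 21.7% lower than in fibroblasts, and 16% higher and 19.3% lower than in muscle.

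Among ion channels, Kcnk3, the acid-sensitive potassium channel TASK-1 that is mutated in some heritable pulmonary hypertension, averaged 576 ± 128 CPM in pericytes, 4.20 CPM in fibroblasts and 194 CPM in muscle cells. It was higher than in both (log2 6.80 ± 0.16 and 1.42 ± 0.13). Abcc9 and Kcnj8, the subunits of the ATP-sensitive potassium channel that mark pericytes of the brain in mice, were not higher here than in either cell type. Abcc9 averaged 31.4 ± 5.59 CPM in pericytes, 63.2 CPM in fibroblasts and 123 CPM in muscle cells, and was lower in pericytes in both comparisons (log2 -1.27 ± 0.20 and -2.30 ± 0.18). Kcnj8 averaged 18.4 ± 5.80 CPM in pericytes, 23.6 CPM in fibroblasts and 68.0 CPM in muscle cells, and was called only against muscle (log2 -1.89 ± 0.30). Kcna5, a voltage-gated potassium channel of pulmonary artery muscle, had no UMI in pericytes and 22.6 CPM in muscle cells. In the list of 20 channels tested against fibroblasts, 7 were higher and 5 lower (median -0.07, and 0.19 with library-size scaling), beside 16.5% and 21.7% of all genes. Against muscle 3 of 18 were higher and 9 lower (median -0.64), beside 16% and 19.3% of all genes.

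**Figure D3:**
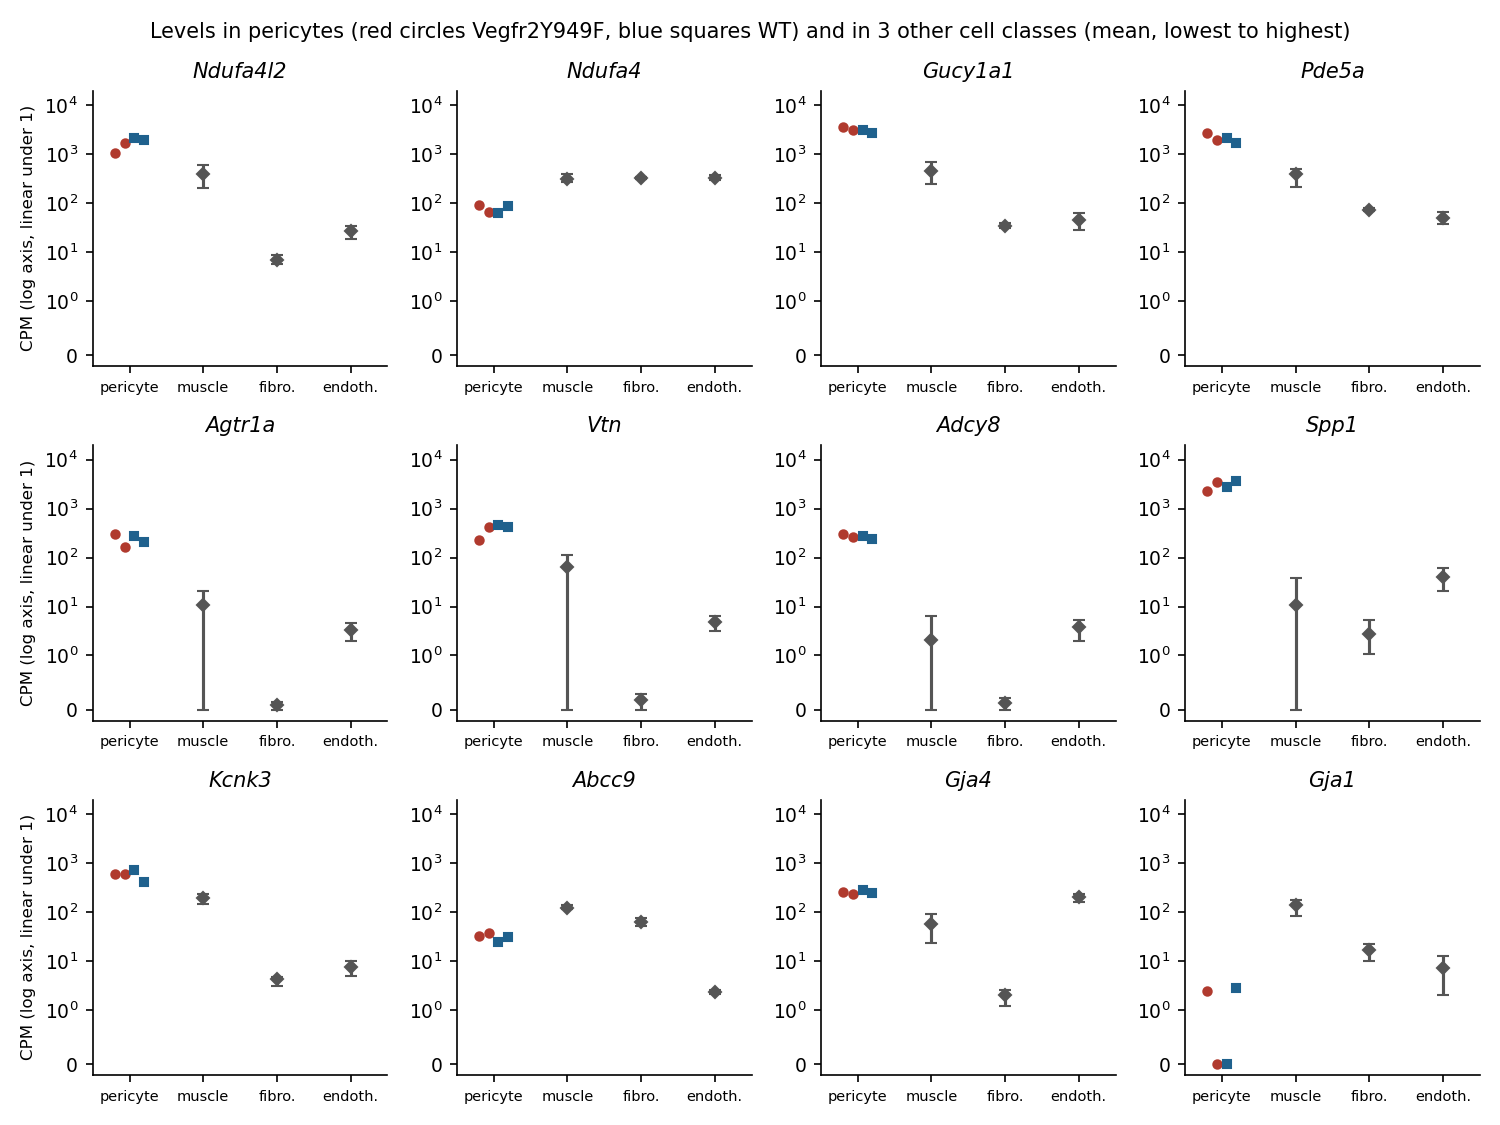
Levels of 12 genes (CPM, log axis that is linear under 1) in pericytes of each library and in muscle cells with Cnn1 or Actg2, alveolar fibroblasts and endothelial cells. Red circles are mutant and blue squares WT pericyte libraries, and grey diamonds are the mean of 4 libraries with bars from lowest to highest. Ndufa4l2, Gucy1a1, Agtr1a and Spp1 are highest in pericytes in every library, whereas the mean levels of Ndufa4 and Gja1 are lowest there.

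Most genes of the contractile apparatus were lower than in muscle cells but higher than in fibroblasts. The list summed to 8760 and 9320 CPM in mutant and 10541 and 8882 CPM in WT pericytes, against 4946 CPM in fibroblasts. Of 20 genes tested, 2 were higher and 16 lower than in muscle cells (median -1.84), whereas 14 were higher and 2 lower than in fibroblasts (median 0.64). Acta2 had 49.8 and 302 CPM in mutant and 196 and 122 CPM in WT pericytes, against 6946 CPM in muscle cells and 21.8 CPM in fibroblasts. It was lower than in muscle by 4.47 on the log2 scale and higher than in fibroblasts by 2.63 ± 0.21. The exceptions against muscle were Ppp1r14a, the inhibitor of myosin phosphatase (1870 ± 151 CPM in pericytes and 857 CPM in muscle cells, log2 0.98 ± 0.13), and Myh9, non-muscle myosin (661 ± 130 and 336 CPM, log2 1.02 ± 0.13). Myl9, a myosin light chain, averaged 631 ± 207 CPM in pericytes, 2592 CPM in muscle cells and 28.1 CPM in fibroblasts.

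Gap junction genes also differed by paralog. Gja4 (connexin 37) averaged 258 ± 21.8 CPM and Gjc1 (connexin 45) 419 ± 29.9 CPM in pericytes, against 58.1 and 86.8 CPM in muscle cells and 1.98 and 6.39 CPM in fibroblasts. Both were higher in pericytes in both comparisons, by 2.23 ± 0.21 and 2.33 ± 0.15 over muscle. Gja1 (connexin 43) had at most 2.85 CPM in any pericyte library and 139 CPM in muscle cells, and was lower by 6.07 on the log2 scale. Cdh2 (N-cadherin), the adhesion molecule of the contact between pericyte and endothelium, averaged 81.2 ± 27.7 CPM in pericytes, 23.7 CPM in muscle cells and 0.0657 CPM in fibroblasts. The collagen receptor subunit Itga1 averaged 1995 ± 602 CPM in pericytes, 520 CPM in muscle cells and 24.5 CPM in fibroblasts.

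Matrix genes split by compartment. Of 26 fibrillar and interstitial matrix genes, 25 were lower than in fibroblasts and Loxl2, a collagen cross-linking enzyme, was higher (median -2.38), and 20 of 25 were lower than in muscle, where Mfap4 was higher (median -1.28). All 12 tested proteases and protease inhibitors were lower than in fibroblasts, and all 11 were lower than in muscle cells with Cnn1 or Actg2. Basement membrane genes had 8 of 19 higher and 7 lower than in fibroblasts (median 0.07) and 9 of 15 higher and 4 lower than in muscle (median 0.87). Col4a1 averaged 1841 ± 439 CPM in pericytes, 377 CPM in fibroblasts and 670 CPM in muscle cells, and Col4a2 1206 ± 282, 198 and 366 CPM in the same cells. The basement membrane linker Nid2 averaged 64.1 ± 19.6 CPM in pericytes, 2.05 CPM in fibroblasts and 8.45 CPM in muscle cells (log2 4.70 ± 0.30 and 2.98 ± 0.33). Vtn, which encodes vitronectin, had 224 and 418 CPM in mutant and 458 and 427 CPM in WT pericytes and 0.187 CPM in fibroblasts.

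**Figure D4:**
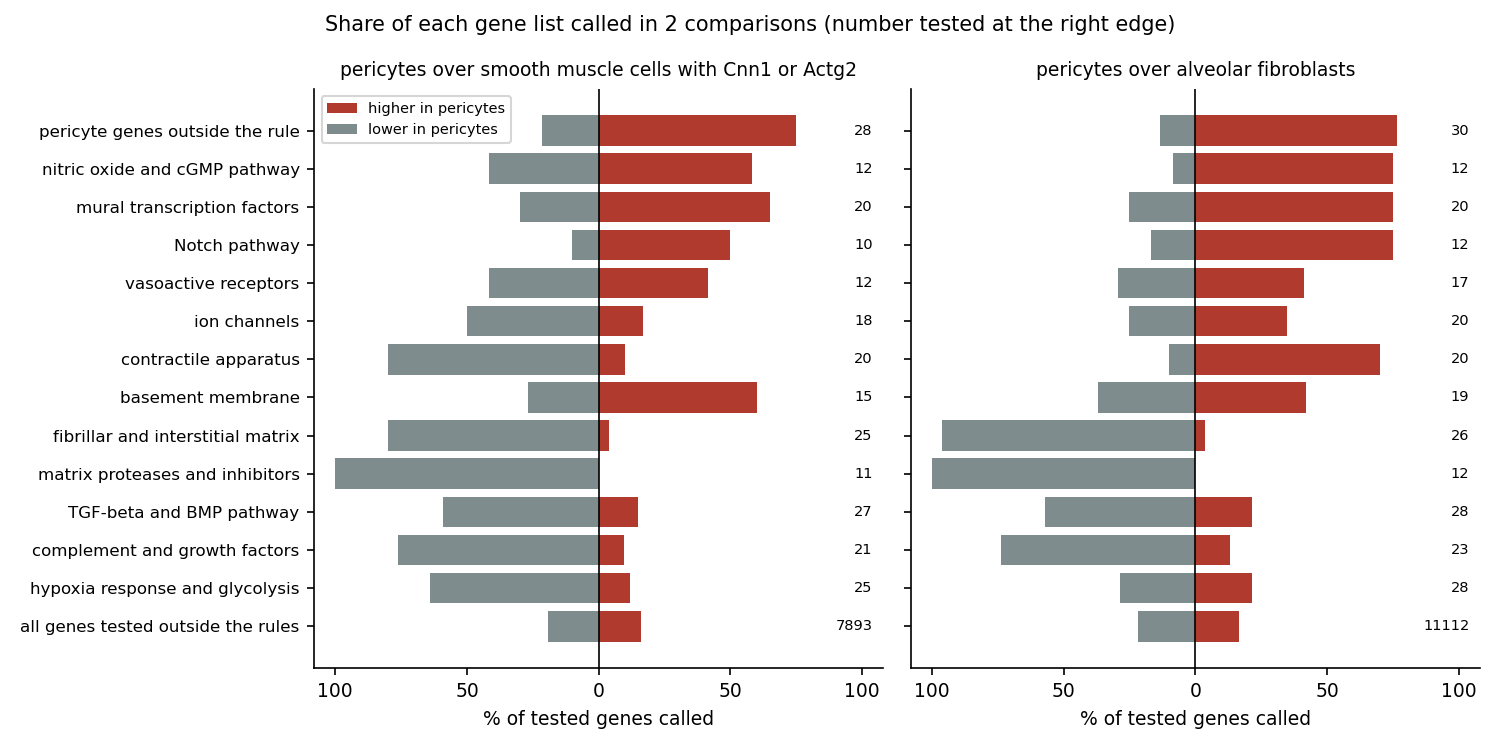
Share of the tested members of 13 gene lists, and of all genes tested, that were called higher in pericytes (red, to the right) or lower (grey, to the left) than in muscle cells with Cnn1 or Actg2 and than in alveolar fibroblasts. The numbers at the right edge are the genes tested. The fibrillar and interstitial matrix list and the protease list lie almost wholly on the lower side in both panels, and the basement membrane list does not.

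Set against the muscle class first defined, fewer genes were called over all genes and among members of these lists. Over all 7414 genes tested, 3.39% were higher and 5.41% lower, where the other muscle comparison had 16% and 19.3%. Of 10 proteases and inhibitors 1 was higher and 6 lower (median -0.88), of 25 fibrillar matrix genes 1 was higher and 9 lower (median -0.30), and of 14 basement membrane genes 1 was higher and 3 lower (median 0.18). Of 20 contractile genes 1 was higher and 15 lower (median -1.14), and of 15 ion channels 1 was higher and 6 lower (median -0.18). Of 11 genes of the nitric oxide pathway 3 were higher and 3 lower (median 0.25), as were 3 and 3 of 13 receptors (median 0.08). Of 9 Notch genes 2 were higher and none lower, of 20 transcription factors 5 were higher and 5 lower, and of 28 known pericyte genes 11 were higher and 5 lower (median 0.23).

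Notch genes other than the marker were mostly higher than in fibroblasts, 9 of 12 with 2 lower (median 1.86), and 5 of 10 were higher than in muscle with 1 lower. Nrarp, a Notch target that feeds back on the pathway, averaged 215 ± 40.9 CPM in pericytes, 0.875 CPM in fibroblasts and 23.7 CPM in muscle cells (log2 7.67 ± 0.20 and 3.14 ± 0.29). The receptor Notch1 averaged 256 ± 84.8 CPM in pericytes, 43.6 CPM in fibroblasts and 54.2 CPM in muscle cells. Transcription factors of the mural and lung mesenchymal lineages were higher than in fibroblasts in 15 of 20 cases and lower in 5, and higher than in muscle in 13 of 20 and lower in 6. Ebf1 averaged 804 ± 130 CPM in pericytes, 10.5 CPM in fibroblasts and 299 CPM in muscle cells. Nr2f1 averaged 206 ± 45.4, 9.62 and 14.1 CPM in the same cells, and Tbx5, a T-box factor of heart and lung development, 528 ± 166, 57.4 and 120 CPM. Gata6 and Prrx1 were lower in pericytes in both comparisons.

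Among signals to endothelium, Angpt1, the Tie2 ligand that pericytes are known for, had 555 and 336 CPM in mutant and 308 and 353 CPM in WT pericytes. It was not called against fibroblasts, which had 288 CPM (log2 0.14 ± 0.13), and was higher than in muscle (log2 1.15 ± 0.16). Vegfa averaged 59.1 ± 31.4 CPM in pericytes, 163 CPM in fibroblasts and 382 CPM in endothelial cells, and was lower than in fibroblasts by 1.73 on the log2 scale. Kdr, the gene of the altered receptor, had 32.4 and 17.4 CPM in mutant and 34.9 and 19.9 CPM in WT pericytes, against 419 CPM in endothelial cells. The endothelial markers that the rule did not use, Pecam1, Tie1 and Egfl7, summed to 115 and 37.7 CPM in mutant and 85.8 and 76.9 CPM in WT pericytes, and their part in the Kdr level was not tested. Il34, a ligand of the macrophage receptor Csf1r, averaged 118 ± 18.4 CPM in pericytes, 4.53 CPM in fibroblasts and 35.8 CPM in muscle cells. Of 18 chemokine and cytokine genes tested against fibroblasts, 15 were lower, and Il34 and the Kit ligand gene Kitl were higher.

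Of the 30 pericyte genes known from other organs and studies that the rule did not use, 23 were higher and 4 lower than in fibroblasts (median 5.39), and 21 of 28 were higher and 6 lower than in muscle (median 1.45). Pdzd2, a PDZ-domain protein, averaged 3898 ± 565 CPM in pericytes, 102 CPM in fibroblasts and 131 CPM in muscle cells (log2 4.99 ± 0.14 and 4.88 ± 0.19). Rgs5, a regulator of G-protein signalling and a classic pericyte marker of other organs, was uneven, with 105 and 11.6 CPM in mutant and 188 and 34.2 CPM in WT pericytes. It was higher in library A than in library B of both genotypes, 1 cell held 32.8% of its UMIs, and it was found in 12.7% of pericytes, against 0.327% of alveolar fibroblasts. Lamc3, a laminin chain, averaged 19.1 ± 12.6 CPM in pericytes and 60.4 CPM in fibroblasts and was lower (log2 -1.88 ± 0.26).

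The genes called in both comparisons numbered 866 higher and 966 lower in pericytes. The 12 per direction with the largest value of the smaller of the 2 differences were named. Higher genes had to average at least 20 CPM in pericytes, and lower genes at least 20 CPM in both fibroblasts and muscle cells. Spp1, which encodes osteopontin, a secreted phosphoprotein of matrix and inflammation, led the higher genes. It had 2249 and 3429 CPM in mutant and 2836 and 3737 CPM in WT pericytes. Fibroblasts had 2.80 CPM and muscle cells 10.6 CPM, differences of 9.93 ± 0.26 (edgeR adjusted p = 1.46e-23) and 8.27 ± 0.38 (adjusted p = 4.76e-13), each higher in 4 of 4 libraries. Its UMIs lay in 191 of 361 pericytes and the fullest cell held 3.82% of them. Adcy8, a calcium-stimulated adenylyl cyclase, had 301 and 267 CPM in mutant and 276 and 236 CPM in WT pericytes, against 0.121 CPM in fibroblasts and 2.08 CPM in muscle cells. Tnfrsf21 (death receptor 6) averaged 181 ± 17.6 CPM in pericytes, 0.686 CPM in fibroblasts and 0.847 CPM in muscle cells. Meox1, a homeobox factor, averaged 49.4 ± 9.57 CPM in pericytes and 0.640 CPM in fibroblasts and had no UMI in muscle cells. The others were Baiap3, Lrrc4c, Ntm, Cstdc2, Wfdc8, Fam162b, Psme2b and St6galnac3, with Fam162b the highest of these at 537 ± 107 CPM. The 12 lower genes included Igf1 (14.8 ± 11.3 CPM in pericytes, 161 CPM in fibroblasts and 130 CPM in muscle cells), the tissue factor gene F3 (6.24 ± 3.80, 56.4 and 162 CPM) and Hhip, a hedgehog-binding protein (10.3 ± 7.27, 71.6 and 1401 CPM). Col15a1, Lum, Osr1, Hmcn1, Col14a1, Fxyd6, Igfbp5 and Sorl1 were also among them.

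Between genotypes, no gene of 5745 tested in pericytes was called (percent called 0). The smallest Benjamini-Hochberg adjusted p of edgeR's quasi-likelihood test was 0.972, with 224 genes at an unadjusted p under 0.05 (3.9%). DESeq2 likewise called 0, with 39 at an unadjusted p under 0.05. On simulated counts the edgeR genotype fit called 9.28% of genes changed 2-fold and 72% of those changed 4-fold. A count of 0 can therefore miss most differences of 2-fold. Both mutant libraries lay above both WT libraries for 1085 genes (18.9%) and below for 792 (13.8%). The 16 genes with the smallest unadjusted p among those averaging at least 20 CPM are described next, 8 in each direction, and none passed the adjustment (edgeR adjusted p = 0.972 for each). Over the wider class 1 gene was called (0.0113% of 8852), Dcn, a matrix proteoglycan, with 36.5 and 48.7 CPM in mutant and 199 and 224 CPM in WT cells (log2 -2.35 ± 0.28, edgeR adjusted p = 0.00597). The 361 pericytes had 62.3 and 136 CPM of it in mutant and 24.1 and 689 CPM in WT libraries, so the groups overlapped, and 52.5% of its WT B UMIs lay in 1 cell. Dcn is itself a marker of adventitial fibroblasts, and 4 of their 5 markers tested had a negative difference over the wider class (median -0.55), whose part was not tested. Without mixed cells the pericytes had 20.1 and 8.57 CPM of it in mutant and 3.45 and 11.9 CPM in WT libraries.

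Pcolce2, an enhancer of procollagen processing, had 428 and 418 CPM in mutant and 169 and 148 CPM in WT pericytes, without overlap (log2 1.37 ± 0.29, 0.68 with at least 4 of 6 markers and 0.94 over the wider class). Its UMIs lay in 47 cells, and it did not pass the low-count filter without mixed cells. Alveolar fibroblasts had 1587 CPM of it, and the sum of their markers lay above WT in both mutant libraries, as given above. Pdgfra and Scube2 likewise lay above WT in both mutant libraries (log2 1.44 ± 0.34 and 1.49 ± 0.38, and 0.81 and 0.91 over the wider class), were fibroblast-rich (965 and 200 CPM in fibroblasts) and lay in 29 and 20 pericytes. Cldn18, an alveolar epithelial claudin, and Ifi27l2a, an interferon-induced gene, had 77.4% and 70.3% of their UMIs in 5 cells. The log2 difference of Cldn18 was 2.01, but 0.95 with at least 4 of 6 markers and 1.16 without mutant A. That of Ifi27l2a was 3.30, but 2.17 over the wider class and 1.52 without mutant B. The part of fibroblast and epithelial RNA in these 5 differences was not tested. Like Pcolce2, the genes Pdgfra, Scube2, Cldn18 and Ifi27l2a did not pass the low-count filter without mixed cells. Nor did Scube2 and Ifi27l2a pass it with at least 4 of 6 markers.

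Col6a3, a collagen VI chain, had 127 and 145 CPM in mutant and 48.3 and 51.3 CPM in WT pericytes (log2 1.40 ± 0.33). Without mixed cells the log2 difference was 1.38, and over the wider class 0.86. Pde4a, a phosphodiesterase of cyclic AMP, had 54.8 and 46.4 CPM in mutant and 8.04 and 14.2 CPM in WT pericytes (log2 2.12 ± 0.54, and 2.00 without mixed cells). It was found in 17.1% and 16.7% of mutant and 1.96% and 6.58% of WT pericytes, and over the wider class the log2 difference was 0.85. Mgp, the matrix Gla protein that inhibits calcification and binds BMPs, had 5926 and 6384 CPM in mutant and 2692 and 798 CPM in WT pericytes (log2 1.79 ± 0.47). Of its UMIs 64.9% lay in 5 cells, alveolar fibroblasts had 24022 CPM, and without mixed cells the levels were 699 and 553 CPM in mutant and 218 and 71.4 CPM in WT pericytes (log2 2.07). In that setting, too, both mutant libraries lay above both WT libraries. The log2 difference was 0.58 with at least 4 of 6 markers, 0.98 over the wider class and 1.17 without WT B, against 1.69 to 2.88 without one of the other libraries.

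On the lower side, Fst, which encodes follistatin, a secreted inhibitor of activins, had 182 and 119 CPM in mutant and 292 and 319 CPM in WT pericytes (log2 -1.06 ± 0.31, -1.05 without mixed cells and -0.71 over the wider class). Its UMIs lay in 154 pericytes, and fibroblasts had 4.60 CPM and muscle cells 129 CPM of it. Trip10, a membrane-bending adaptor that binds Cdc42, had 29.9 and 46.4 CPM in mutant and 93.8 and 85.5 CPM in WT pericytes (log2 -1.28 ± 0.37, -1.28 without mixed cells and -0.69 over the wider class). The lipid droplet protein Plin2 had 57.3 and 84.1 CPM in mutant and 121 and 211 CPM in WT pericytes (log2 -1.28 ± 0.37), but -0.44 without mixed cells, -0.60 over the wider class and -0.80 without WT B. Dapk1, Capg, Igbp1, Siva1 and Cetn3 made up the rest, with log2 differences between -1.44 and -0.96, and between -0.76 and -0.32 over the wider class. Dapk1 did not pass the low-count filter without mixed cells. In all 8 genes both mutant libraries lay below both WT libraries, as did 13.8% of all genes tested. These genes and those on the higher side were chosen by small p in the same libraries. That choice favours such separation, which therefore adds no support.

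**Figure D5:**
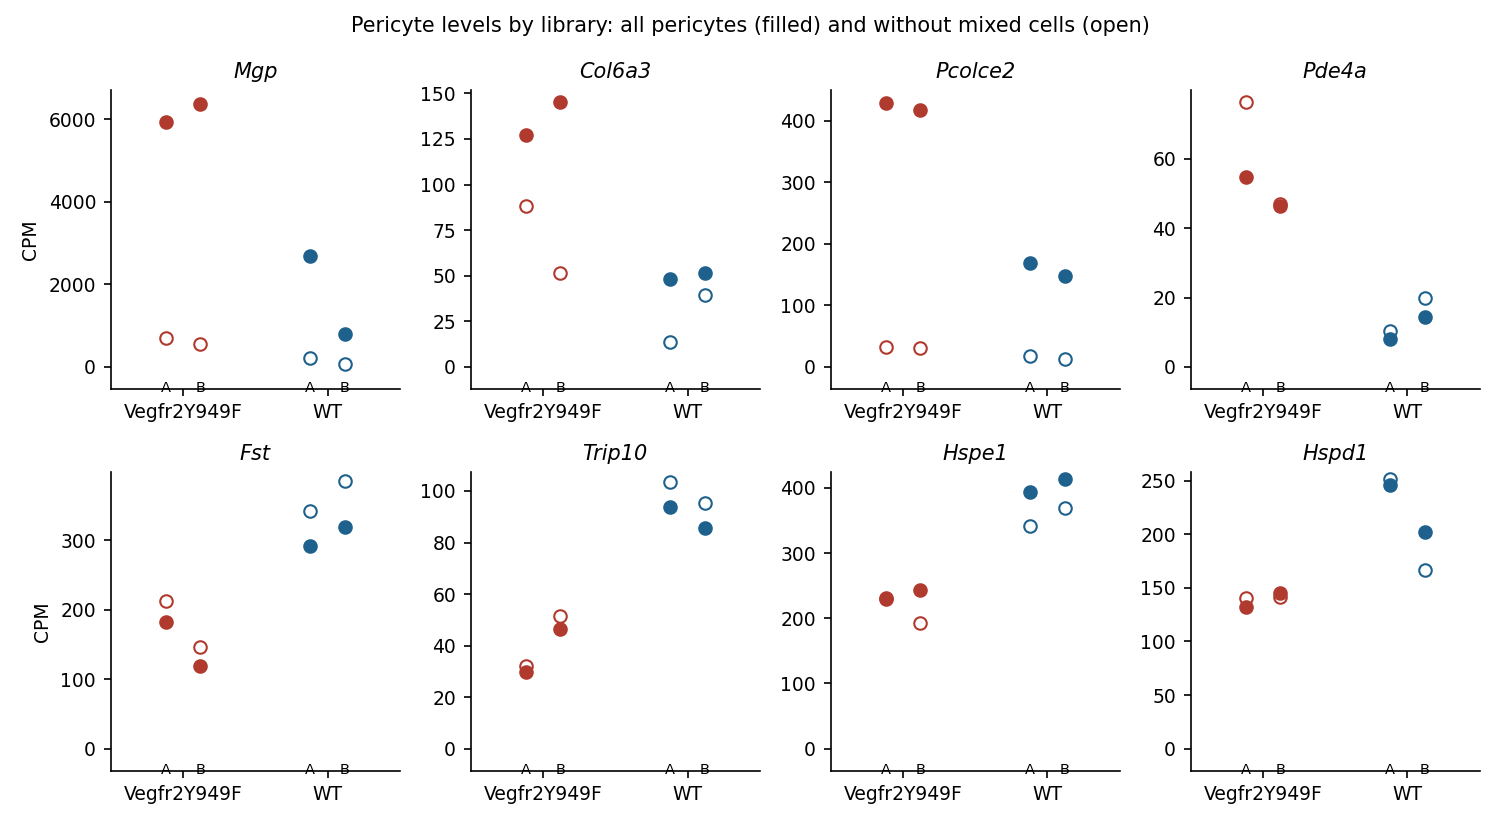
Levels of 8 genes in the pericytes of each library (CPM), with mutant libraries A and B to the left and WT libraries A and B to the right of each panel. Filled circles are all pericytes and open circles pericytes without mixed cells. The mutant libraries lie above WT for Mgp, Col6a3, Pcolce2 and Pde4a and below WT for Fst, Trip10, Hspe1 and Hspd1, and for Mgp and Pcolce2 the levels shrink when mixed cells are left out. All but Hspe1 and Hspd1 were chosen by small unadjusted p in these same libraries.

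As lists, the genotype differences were small beside a median of 0.00 over all genes, and no member of any list was called in the 361 pericytes. Of all 5745 genes tested, 2885 had a positive and 2860 a negative difference. Both mutant libraries lay above both WT libraries for 18.9% of these genes and below for 13.8%. Over the wider class 1 matrix gene, Dcn, was called. Of 12 heat shock and chaperone genes, 11 had a negative log2 difference and 6 lay below both WT libraries, with a median of -0.44, -0.50 over the wider class and -0.43 without mixed cells. Hspe1 and Hspd1, the mitochondrial chaperonin pair, had 232 and 244 CPM and 132 and 145 CPM in mutant pericytes, against 394 and 413 CPM and 247 and 202 CPM in WT pericytes (log2 -0.81 ± 0.29 and -0.74 ± 0.29). Hspa1b was the exception, with 3128 and 2065 CPM in mutant and 1611 and 2481 CPM in WT pericytes. Of 15 complex IV genes, 12 had a negative difference (median -0.15), and Ndufa4l2 lay below WT in both mutant libraries (log2 -0.62 ± 0.34). Of 22 fibrillar matrix genes, 18 had a positive difference and 9 lay above both WT libraries, with a median of 0.30, 0.02 over the wider class and 0.38 without mixed cells. Alveolar fibroblasts had a summed 45351 CPM of this list, and their markers lay above WT in both mutant libraries with and without mixed cells, as given above, and their part in the difference was not tested. Of 8 genes of the nitric oxide pathway 6 had a positive difference and 3 lay above both WT libraries. Their median was 0.27, 0.14 over the wider class and 0.28 without mixed cells. Among the positive genes was Prkg1, the cyclic GMP-dependent kinase (359 and 197 CPM in mutant and 249 and 160 CPM in WT pericytes, log2 0.40 ± 0.34). Of 10 ion channels 8 were positive and 4 lay above both WT libraries (median 0.13, 0.10 over the wider class and 0.12 without mixed cells). Among the positive channels was Cacna1c, the L-type calcium channel pore, with 209 and 186 CPM in mutant and 126 and 111 CPM in WT pericytes (log2 0.69 ± 0.29). Of the 30 known pericyte genes, 25 were tested, with 12 positive and 13 negative differences (median -0.06).

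Whether a genotype difference in pericytes differed from that in another cell type was tested directly. Against alveolar fibroblasts 2 of 11963 genes were called (0.0167%), Saa3 and Mgp. The Mgp difference in pericytes exceeded that in fibroblasts by 1.99 ± 0.35 (edgeR adjusted p = 0.0422) and by 2.13 ± 0.41 without mixed cells, and fibroblasts themselves had a log2 genotype difference of -0.02. Saa3, an acute-phase protein gene, had 849 and 0 CPM in mutant and 21.4 and 0 CPM in WT pericytes, and 96.6% of its UMIs lay in 1 cell. Against endothelial cells 25 of 14151 were called (0.177%), and 4 of them without mixed cells, Saa3, Mgp, Hba-a1 and Hba-a2. The haemoglobin genes rested on 1 mutant B cell with 79.7% of the Hba-a1 UMIs.

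Within the pericytes, levels of the 6 markers correlated positively from cell to cell, but most pairs only weakly. Over the 361 cells, Spearman's correlation of levels scaled to each cell's depth was 0.52 between Cox4i2 and Higd1b, the highest of the marker pairs. It was 0.36 between Postn and Pdgfrb, 0.16 between Cox4i2 and Notch3 and, lowest, 0.14 between Cox4i2 and Pdgfrb. Between Acta2 and Tagln it was 0.46. The immediate early genes Fos and Egr1, which cell dissociation induces, correlated at 0.63 with each other and at -0.32 (Egr1) with Cox4i2. Cox4i2 also correlated at -0.32 with Mgp and Thbs1. These values share libraries, depth and the conditions that chose the cells, and are given as a description.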

How the data were processed

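Droplet single-cell RNA libraries of 4 pools of lung, each of 2 mice, were analysed, 2 pools per genotype. The deposited values are raw UMI counts per gene and cell barcode, written by Cell Ranger 6.1.1 per the file headers. The submitters' processing notes name fastp, UMI-tools, Seurat 4.1.0 and mm10, and other settings are not given in the sources used here. Barcodes with at least 500 genes, at least 1000 UMIs and under 15% mitochondrial UMIs were kept, and no doublets were removed except in an alternative without the highest 8% of Scrublet scores per library. Cell classes were set by detected markers, counts were summed per library and class, and sums were tested with edgeR 4.0.16 (R 4.3.3; TMM, filterByExpr, quasi-likelihood test, Benjamini-Hochberg adjusted p under 0.05). Cell type comparisons had the library as a block, and genotype comparisons had none. DESeq2 1.42.0, library-size scaling (added after seeing the data), no filter, stricter and wider cell definitions, and leaving out each library were the alternatives. Shares were compared with an exact permutation test over libraries (scipy 1.17.1). The scripts were tested on simulated data. A mixed cell had at least 3 markers of another type.

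Named genes were the 8 per direction with the smallest unadjusted genotype p among genes averaging at least 20 CPM, the 12 per direction with the largest smaller log2 difference among genes called in both cell type comparisons, and members of the gene lists. The members and lists were chosen with earlier results of these data known. The class of muscle cells defined first held many marker-bearing cells, so the classes split on Cnn1 and Actg2, and the setting without mixed cells, were added after seeing the data. Genes of near-identical copies, such as Hba-a1 and Hba-a2, share reads and are uncertain. Some genes that the rule names are not reported here.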

Additional observations from a re-analysis of the deposited data

Results flagged for a closer look

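The genotype difference in pericytes differed from that in alveolar fibroblasts for 2 genes and from that in endothelial cells for 25 genes (edgeR quasi-likelihood interaction test, Benjamini-Hochberg adjusted p under 0.05). For Mgp the log2 difference of differences was 1.99 against fibroblasts and 2.05 against endothelial cells, and both held without mixed cells. Most of its pericyte UMIs also lay in few cells, as given above. Its genotype log2 difference within pericytes fell from 1.79 to 0.58 with at least 4 of 6 markers. For Saa3 it was 5.85 against fibroblasts and 4.61 against endothelial cells, with 96.6% of its pericyte UMIs in 1 cell. For Hba-a1 and Hba-a2 it was 3.62 and 2.90 against endothelial cells, with 79.7% and 72.0% of the UMIs in 1 cell.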

How the results depend on the processing

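The 361 pericytes had 0 genes called between genotypes, also under DESeq2, with at least 4 of 6 markers, without the highest Scrublet scores and without mixed cells. The count was 28 without a low-count filter, 1 over the wider class and 3 to 33 when 1 library was left out, where the lone library is assumed to vary like the others. With the set letter as a replicate block it was 23, among them Mgp, Ifi27l2a, Pcolce2, Cldn18, Pdgfra, Fst, Plin2 and Col6a3 of the 16 genes named (edgeR adjusted p = 3.17e-06 for Mgp and 0.0191 for Fst). Deviations of same-letter libraries correlated at 0.265 (-0.265 for the crossed pairs), but the letter's meaning is not stated and 2 pairs do not decide whether it pairs the libraries, so the values without the block are the ones reported. Against the muscle class defined first, 652 genes were called, 255 by DESeq2, 205 with no replicate block, 392 to 510 with 1 library left out, 1234 without mixed cells and 2786 with both classes split on Cnn1 and Actg2. The count of 4251 against fibroblasts stayed within 1.5 times under each alternative run, but with library-size scaling 3026 genes were higher and 1717 lower in pericytes, where TMM gave 1839 and 2412. Against the first muscle class that scaling gave 336 higher and 354 lower, where TMM gave 251 and 401. The 2 genotype interactions with fibroblasts became 4 over the wider class and 0 to 22 with 1 library left out (0 without WT B). The 25 with endothelial cells became 6 with at least 4 markers, 4 without mixed cells and 10 to 62 with 1 library left out. The mutant minus WT share, 0.00712 percentage points, was -0.00195 without the highest Scrublet scores, -0.236 thinned to 1000 UMIs, -0.217 over the wider class, -0.0345 without mixed cells and -0.083 to 0.0972 with 1 library left out, negative without mutant A and, at -0.0681, without WT B. The causes were not tested. Depth and 72 to 111 cells per library limit genes of low level.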
